A study of Mus musculus with 3 samples.

Results

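The genes described are 10 members of the mouse MHC class II pathway, chosen by name and each found once among the 32285 genes of the count tables. They were followed in single cells of the femoral artery through wire injury. Class II molecules sit on the surface of antigen-presenting cells and show fragments of swallowed proteins to CD4+ T cells. An alpha and a beta chain pair in the endoplasmic reticulum with the invariant chain, which fills their groove and takes them to the endosome. There the DM proteins exchange the remnant of the invariant chain for a peptide, and the DO proteins hold DM back. CIITA, a coactivator that binds no DNA itself, switches on the whole set through factors bound at shared promoter elements. Dendritic cells and B cells carry class II at rest, monocytes and macrophages to a degree that depends on their state, and endothelial cells and fibroblasts mainly after interferon gamma.

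The study has 3 libraries of 8-week-old wild-type male mice, 1 per group, each of live single cells sorted from the arteries of 6 pooled mice. Sham arteries had the operation without the injury, and D2 and D7 arteries were taken 2 and 7 days after a wire was passed through the vessel. The labels give no harvest time for Sham. Because each group is a single library of pooled mice, no comparison between groups has a replicate check, and none was tested. Intervals are 95% intervals of counting error only, and they leave out the differences between mice. Those of levels and ratios also leave out the differences between the cells of a class.

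Of the 10 genes, 8 lie together on chromosome 17 and within the class II region (mm10). Cd74, the invariant chain, lies at chr18:60803848-60812652, and Ciita, the coactivator, at chr16:10480059-10528418. The classical chains are H2-Aa at chr17:34282744-34287823 on the minus strand, H2-Ab1 at chr17:34257689-34269419 and H2-Eb1 at chr17:34305867-34316674. The DM genes H2-DMa, H2-DMb2 and H2-DMb1 start at 34119541, 34143307 and 34153072, and the DO genes H2-Oa and H2-Ob at 34092340 and 34238903. H2-DMb1 and H2-DMb2 are close copies, and how reads that match both were counted is not given in the sources used here, so the division of UMIs between them is uncertain.

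After filtering, 7329 Sham, 10988 D2 and 10852 D7 cells remained, with median depths of 4077, 6625.5 and 6721.5 UMIs (unique molecular identifiers, 1 per captured transcript). The libraries shared 21 to 29 cell barcodes pairwise. Cells were clustered without the 10 genes, and clusters were named from other marker genes, so class II levels played no part in those 2 steps. The scores used before that to remove doublets (barcodes holding more than 1 cell) were computed without leaving the 10 genes out. Of the markers of each class, 9 of 9 B, 10 of 10 fibroblast, 8 of 10 endothelial, 14 of 17 monocyte/macrophage and 20 of 27 dendritic genes were highest in their own class. The dendritic-like class had 143 cells in Sham, 966 in D2 and 559 in D7, and the B-like class 280, 370 and 769. The monocyte/macrophage-like class had 976, 4237 and 2758 cells, the endothelial-like class 466, 88 and 381, and the fibroblast-like class 1851, 88 and 2884. A level is given as CPM, the counts of a gene per 1000000 UMIs summed over the cells of a class in 1 library. A gene was called higher or lower where the ratio of (CPM + 1) between libraries was at least 2, provided the higher library had 50 CPM and 20 UMIs or more.

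CIITA works through a pair of short elements before the start of class II genes, the X box, bound by the RFX complex, and the Y box, bound by NF-Y, and these are shown for the members whose levels are compared below. RefSeq promoter windows (GRCm38.p6, 250 bases before to 50 after the start) were matched for 7 of the 10 genes. Each stretch of 65 bases runs 5′ to 3′ on the gene's strand, with ATTGG (the Y box CCAAT read on the other strand) and any match to AACNGATG (the core of the X box, where N is any base) in capitals.
H2-Aa, chr17:34287857-34287921, minus strand: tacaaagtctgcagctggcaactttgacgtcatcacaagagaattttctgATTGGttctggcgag
H2-Eb1, chr17:34305758-34305822, plus strand: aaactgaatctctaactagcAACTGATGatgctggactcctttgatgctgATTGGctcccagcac
H2-DMb1, chr17:34153080-34153144, plus strand: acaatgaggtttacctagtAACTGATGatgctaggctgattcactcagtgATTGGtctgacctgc
H2-DMb2, chr17:34145109-34145173, plus strand: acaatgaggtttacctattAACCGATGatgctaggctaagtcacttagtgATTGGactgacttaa
H2-Oa, chr17:34092286-34092350, plus strand: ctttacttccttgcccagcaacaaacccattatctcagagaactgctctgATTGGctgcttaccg
H2-Ob, chr17:34238798-34238862, plus strand: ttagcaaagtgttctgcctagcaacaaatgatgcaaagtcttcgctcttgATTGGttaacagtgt
ATTGG began 43 to 90 bases before the RefSeq start in these 6 genes. The RefSeq starts of H2-DMb1 and H2-DMb2 lie downstream of the annotated gene starts given above, so their stretches lie inside those gene bounds. The AACNGATG core lay before it in H2-Eb1, H2-DMb1 and H2-DMb2, with 22 or 23 bases between them. Searched on both strands, AACNGATG was in 2.32% and CCAAT in 37.4% of all 32851 promoter windows. The core followed by ATTGG within 40 bases on the same strand was in 17 windows (0.0517%), 3 of them these. A match is a description of the letters, and the other 3 stretches merely lack this exact core.

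Among the named classes, the 3 chain genes were highest in dendritic-like cells in every library, and the other classes kept no fixed order behind them. Summed over H2-Aa, H2-Ab1 and H2-Eb1, dendritic-like cells had 22714 CPM in Sham, 31263 in D2 and 23390 in D7. Monocyte/macrophage-like cells came second in Sham at 9771 CPM, and stood below B-like cells in D2 (4330 CPM against 8487) and in D7 (8104 against 9112). B-like cells had 6366 CPM in Sham. Endothelial-like cells had 241, 43.6 and 542 CPM in Sham, D2 and D7, and fibroblast-like cells 66.1, 64.1 and 273. The counting intervals of the 2 stromal classes overlapped in D2 (33.5 to 56.0 CPM in endothelial-like and 53.1 to 76.6 in fibroblast-like cells) and in no other library. The stromal levels were of the order seen in neutrophil-like cells, which are not known for class II: 92.2, 171 and 383 CPM.

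**Figure D1:**
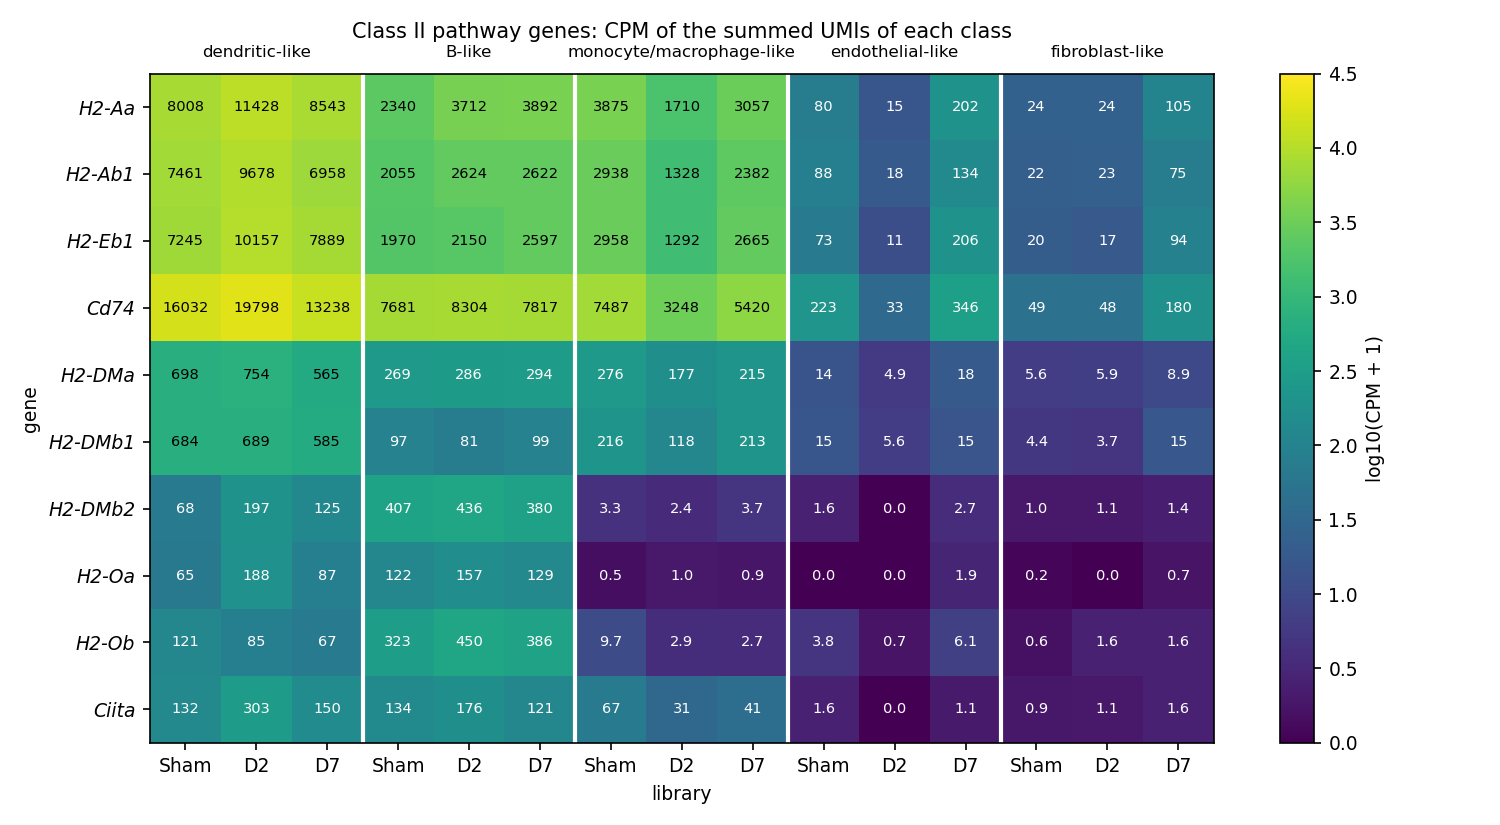
Level of each of the 10 genes (rows) in 5 cell classes of each library (columns), as CPM printed in the cell and as log10(CPM + 1) in colour; each value is the summed UMIs of 1 class in 1 library. The chain genes and Cd74 are high in the 3 blocks of dendritic-, B- and monocyte/macrophage-like cells, whereas H2-DMb2, H2-Oa and H2-Ob are high in B-like and dendritic-like cells and below 10 CPM in monocyte/macrophage-like cells.

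With the classes as named, the share of each library's class II RNA that dendritic-like cells held was lowest in Sham and highest in D2. The 3 chain genes made up 5177 CPM of the whole Sham library, 6830 of D2 and 4375 of D7. Dendritic-like cells held 19.2% of the chain UMIs in Sham, 60.4% in D2 and 31.3% in D7. Monocyte/macrophage-like cells held 32.9%, 33.8% and 49.9%, and B-like cells 3.87%, 2.47% and 6.61%. In Sham, 39.4% lay in cells with no class. Most of that, 33.8% of the Sham chain UMIs, came from 1 cluster of 259 Sham, 6 D2 and 17 D7 cells. Its leading genes held Cd209a, a dendritic marker, beside Retnla, Lyz1 and Ear2, genes of other myeloid cells, so it was left unnamed. Its best-scoring class was dendritic, with a mean z score of 1.99 and 5 of 6 type 2 dendritic markers detected. Counted as dendritic-like, it would lift the Sham share above the D7 one, with D2 still highest. Its cells are also outside the make-up of the dendritic-like class given below.

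In dendritic-like cells, the classical chains were modestly higher in D2 than in Sham, and the genes that were called were a regulator and the minor DM and DO chains. H2-Aa had 11428 CPM in D2 against 8008 in Sham, H2-Ab1 9678 against 7461 and H2-Eb1 10157 against 7245. Their sum was 1.38 times the Sham level (1.36 to 1.39), short of the 2-fold rule. Cd74 was 1.23 times the Sham level (1.22 to 1.25), and H2-DMa and H2-DMb1, which form the DM dimer, were at 1.08 (1.02 to 1.15) and 1.01 (0.948 to 1.07).

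Ciita, the coactivator of the set, had 303 CPM in D2 against 132 in Sham, a ratio of 2.29 (2.00 to 2.64). H2-DMb2, the second DM beta chain, had 197 CPM in D2 against 67.8 in Sham (2.90, 2.40 to 3.53). H2-Oa, the alpha chain of DO, had 188 CPM in D2 against 65.4 in Sham (2.87, 2.37 to 3.51). These 3 of the 10 genes were called higher in D2 and none lower. Of all 3405 genes compared in this class, 9.02% were called higher and 4.85% lower, and the median log2 ratio was 0.43 over the 10 genes and 0.08 over all. H2-Ob, the beta chain of DO, went the other way, with 85.0 CPM in D2 against 121 in Sham (0.705, 0.605 to 0.824). The 2 DO chains thus did not move together. The Sham values leave out the unnamed cluster with Cd209a and Retnla. In Sham, cells with no class held 410 H2-DMb2, 461 Ciita and 92 H2-Oa UMIs, against 113, 220 and 109 in dendritic-like cells. How the 3 calls stand with that cluster counted as dendritic-like is not given here.

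At D7, the chain sum and Ciita of dendritic-like cells were nearer to the Sham level than H2-DMb2 and H2-Ob were. The chain sum was 1.03 times the Sham level (1.02 to 1.04), Ciita had 150 CPM in D7 against 132 in Sham, and H2-Oa 87.1 against 65.4. Furthest from Sham were H2-DMb2, with 124.9 CPM in D7 against 67.8 in Sham (1.84, 1.51 to 2.27), and H2-Ob, with 67.4 against 121 (0.558, 0.469 to 0.666). None of the 10 genes was called in either direction, where 7.1% of 3382 genes were called higher and 3.31% lower. The chain ratio at D7 also fell below 1 under several other ways of defining the class. Against D2, 2 of the 10 were called lower in D7, Ciita at 0.495 (0.459 to 0.534) and H2-Oa at 0.464 (0.420 to 0.512), where 0.599% of 3338 genes were called lower. None was called higher, against 1.26% of all genes.

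The make-up of the dendritic-like class differed between libraries, which touches each of these ratios. Sub-clustered without the 10 genes, 75 of the 143 Sham cells were type 1-like, the kind marked by Xcr1 and Clec9a, against 109 of 966 in D2 and 90 of 559 in D7. Mature-like cells, marked by Ccr7 and Fscn1, numbered 219 in D2 and 183 in D7 but 5 in Sham. A sub-cluster of 205 D2, 90 D7 and 1 Sham cells was led by C1qb and other macrophage genes, and another of 36 D2, 76 D7 and 51 Sham cells by collagen genes. Without those sub-clusters the chain ratios were 1.41 for D2 and 1.05 for D7, over Sham. The 3 genes called higher in D2 were called there too, H2-DMb2 at 4.80, H2-Oa at 4.40 and Ciita at 2.37, beside 10.4% of all 3443 genes. Of the 91 Sham cells left, 75 were type 1-like, against 109 of the 725 D2 cells and 90 of the 393 D7 cells. Leaving out those sub-clusters thus did not even out the make-up. In D7, 2 genes were called higher without them, H2-DMb2 at 3.01 (2.32 to 3.97) and H2-Oa at 2.10 (1.60 to 2.79), beside 8.50% of all 3460 genes. Neither was called higher over Sham, in D2 or in D7, within the groups compared with Sham below, whereas Ciita was called higher in D2 in each. Type 1-like cells formed different sub-clusters in each library, with 70 of the 75 Sham cells in one that held 0 D2 and 2 D7 cells, and all 109 D2 cells in another that held 5 Sham cells. Across those sub-clusters, their chain sum was 25339 CPM in D2 against 22539 in Sham (1.12, 1.11 to 1.14), and their Ciita 299 CPM in D2 against 138 in Sham (2.17, 1.79 to 2.63). H2-Oa was 1.93 times (1.43 to 2.64) and H2-DMb2 1.42 times (1.01 to 2.00) the Sham level in the same cells. Sub-clusters that took no name, the C1qb-led and collagen-led ones among them, held 59 Sham, 610 D2 and 246 D7 cells. There H2-DMb2 was 1.59, H2-Oa 1.99 and Ciita 2.44 times the Sham level in D2. Their chain sum was 1.33 times the Sham level in D2 and 0.930 times in D7. The collagen-led sub-cluster gave 51 of those 59 Sham cells. Mature-like cells had the highest chain sum of the named dendritic groups, 34191 CPM in D2 and 28017 in D7. They had H2-DMb2 at 419 CPM in D2 and 255 in D7, and H2-Oa at 294 and 146 CPM. The part of the make-up in the ratios of the whole class was not tested. Plasmacytoid-like cells, the interferon producers marked by Siglech, had 2886 CPM in 28 D2 cells and 5299 in 40 D7 cells.

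**Figure D2:**
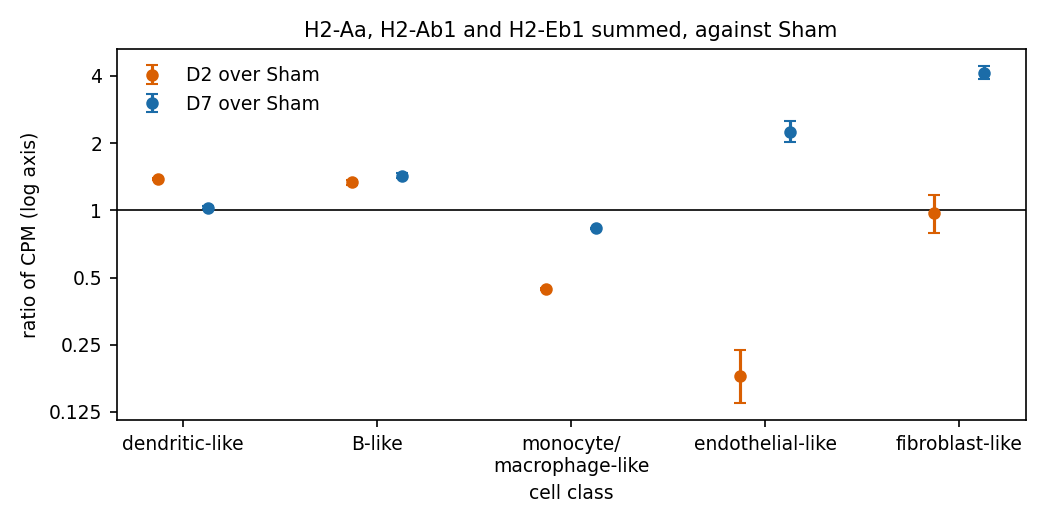
Ratio of the summed CPM of H2-Aa, H2-Ab1 and H2-Eb1 in D2 and in D7 over Sham, on a log axis, for 5 cell classes; points are single-library ratios and bars their 95% counting intervals. Dendritic-like and B-like cells lie between 1.03 and 1.43, monocyte/macrophage-like cells at 0.443 and 0.829, and the stromal classes spread from 0.181 to 4.13.

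B-like cells kept all 10 genes within the 2-fold rule in both comparisons. H2-Aa had 3712 CPM in D2 against 2340 in Sham (1.59, 1.52 to 1.66) and 3892 CPM in D7 (1.66, 1.60 to 1.73). H2-Eb1 was at 1.09 (1.04 to 1.15) in D2 and 1.32 (1.26 to 1.38) in D7, and H2-Ab1 at 1.28 in both (1.22 to 1.34). The chain sum was 1.33 times (1.30 to 1.37) the Sham level in D2 and 1.43 times (1.40 to 1.47) in D7, whereas Cd74 was at 1.08 (1.05 to 1.11) and 1.02 (0.993 to 1.04). With called doublets kept, the chain ratio of D2 turned to 0.930, so its direction depends on that step. Ciita had 134 CPM in Sham, 176 in D2 and 121 in D7. Of the 10 genes, 0 were called in D2 over Sham, where 3.55% of 3744 genes were called higher and 2.99% lower. In D7 over Sham 0 were called as well, where 3.51% of 3703 were higher and 2.24% lower.

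Taken as whole classes, B-like cells differed from the other class II carriers in the members that edit peptide loading. H2-DMb2 took 80.8% of the H2-DMb1 and H2-DMb2 UMIs of B-like cells in Sham, 84.3% in D2 and 79.4% in D7. In dendritic-like cells it took 9.03%, 22.2% and 17.6%, and in monocyte/macrophage-like cells 1.51%, 1.96% and 1.71%. The B-like intervals, whose lowest bound was 77.2%, lay wholly above the dendritic-like ones. H2-Ob, the DO beta chain, had 323, 450 and 386 CPM in B-like cells of Sham, D2 and D7, against 121, 85.0 and 67.4 CPM in dendritic-like cells. In monocyte/macrophage-like cells H2-Ob had 9.66, 2.87 and 2.69 CPM, and H2-Oa 0.453, 1.01 and 0.897 CPM. H2-Oa had 122, 157 and 129 CPM in B-like cells. Dendritic-like cells thus stood above B-like cells in D2 (188 CPM against 157) and below them in Sham and D7. Mature-like dendritic cells of D2 were nearer to B-like cells, with 1123 H2-DMb2 and 1245 H2-DMb1 UMIs. Their H2-DMb2 was at 419 CPM against 436 in B-like cells of D2. Their H2-Oa, at 294 CPM, was above the B-like 157, and their H2-Ob, at 107 CPM, below the B-like 450.

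**Figure D3:**
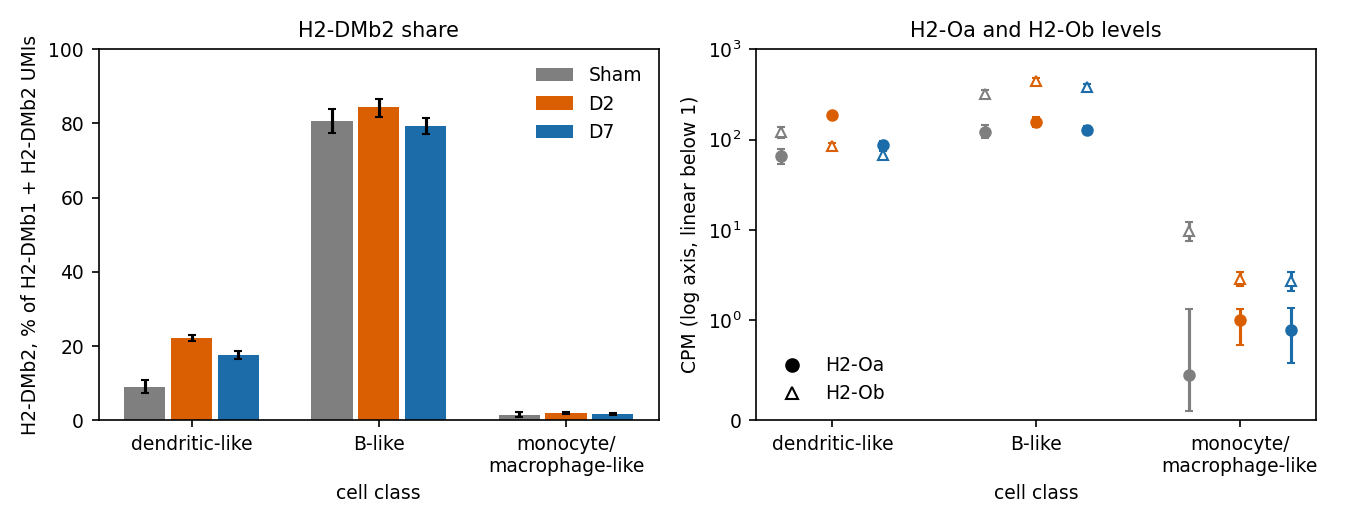
Left, the share of H2-DMb2 in the summed H2-DMb1 and H2-DMb2 UMIs (per cent, bars from 0, with exact 95% binomial intervals); right, the CPM of H2-Oa (filled circles) and H2-Ob (open triangles) on a log axis that is linear below 1, with exact 95% Poisson intervals; both by class and library. H2-DMb2 holds about 80% in B-like cells of every library and under 3% in monocyte/macrophage-like cells.

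In monocyte/macrophage-like cells, the chains, Cd74 and Ciita were all lower in D2, and nearer the Sham level in D7. H2-Aa had 1710 CPM in D2 against 3875 in Sham (0.441, 0.435 to 0.447), H2-Ab1 1328 against 2938 (0.452, 0.445 to 0.459) and H2-Eb1 1292 against 2958 (0.437, 0.430 to 0.444). Cd74 had 3248 CPM in D2 against 7487 in Sham (0.434, 0.430 to 0.438). Ciita had 31.0 CPM in D2 against 66.8 in Sham (0.463, 0.416 to 0.516). These 5 genes were called lower out of 7 that reached the count limits, and none was called higher. Of all 3811 genes compared, 7.69% were called lower and 5.51% higher. The other 2 were the DM genes, H2-DMa at 0.640 (0.609 to 0.674) and H2-DMb1 at 0.548 (0.517 to 0.581). The median log2 ratio was -1.14 over the 7 genes and 0.02 over all genes compared.

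In D7 over Sham, none of the 7 was called, where 7.19% of 3798 genes were called higher and 9.58% lower. The chain sum was 8104 CPM in D7 against 9771 in Sham (0.829, 0.822 to 0.837), and as a mean over cells the ratio was 1.005. Ciita, at 41.1 CPM in D7 against 66.8 in Sham (0.615, 0.550 to 0.689), stood further below Sham than the chains did. D7 was above D2 by 1.87 times (1.86 to 1.88) in the chain sum and by 1.33 times (1.23 to 1.44) in Ciita. H2-Eb1, at 2.06 times (2.04 to 2.09), was the 1 gene of 6 compared that was called higher in D7 over D2, where 1.45% of 3509 genes were, and none was called lower, against 0.57% of all.

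Different clusters made up this class in each library, and they did not move alike. In Sham, 709 of the 976 cells were in a cluster led by Cd209f, Cd163 and Lyve1, genes of resident tissue macrophages, with 9687 CPM of the chain genes. That cluster held 17 D2 cells and 115 D7 cells, the D7 cells at 5613 CPM. In the cluster led by Chil3, Plac8 and Ly6c2, genes of circulating classical monocytes, the chain sum was higher after injury. It had 7021 CPM in D2 against 3331 in Sham (2.11, 2.04 to 2.18) and 6697 CPM in D7 (2.01, 1.95 to 2.08), with 875, 790 and 159 cells in D2, D7 and Sham. In the cluster led by Ccl8, Cbr2 and Fcrls the order was the opposite, the 1124 D2 cells at 770 CPM and the 412 D7 cells at 7676, against 23069 CPM in the 54 Sham cells. The D2 cells of that cluster also had little Cd74 (701 CPM) and Ciita (8.40 CPM). The 1082 D2 cells of the cluster led by Cx3cr1 and Ccr2 stood at 7283 CPM and its 470 D7 cells at 12422, with 37 cells in Sham. The 938 D2 cells of the cluster led by Hmox1 and Arg1 stood at 4109 CPM and its 874 D7 cells at 7920, with 9 cells in Sham. So the lower class sum in D2 was not shared by every cluster, and the part of the changing make-up in it was not tested.

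**Figure D4:**
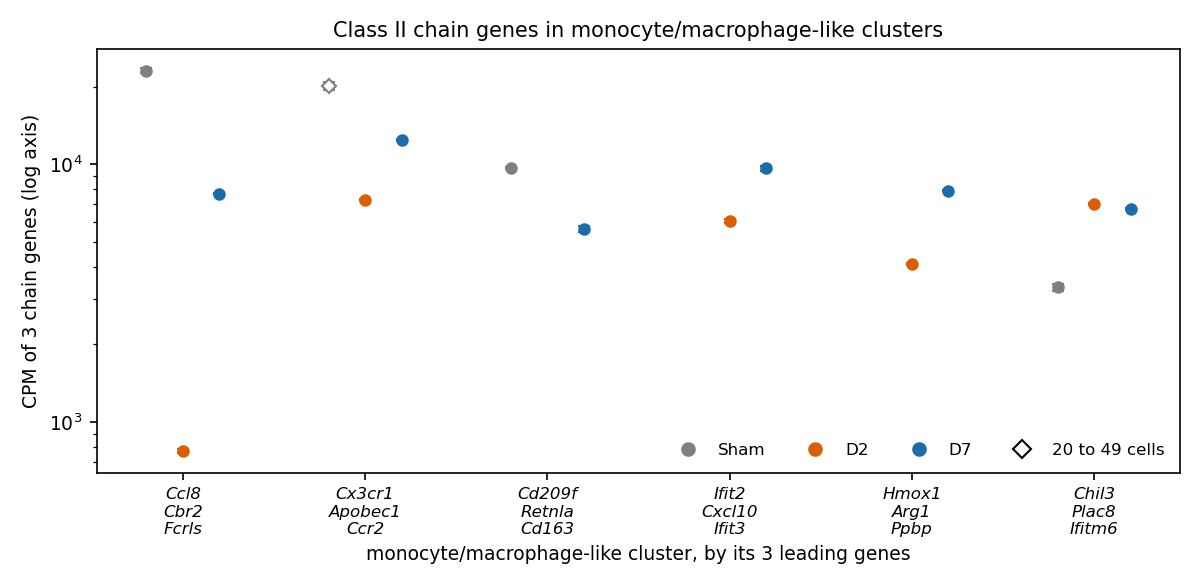
Summed CPM of H2-Aa, H2-Ab1 and H2-Eb1 on a log axis in 6 monocyte/macrophage-like clusters, each named by its 3 leading genes, for Sham, D2 and D7; bars are exact 95% Poisson intervals, mostly smaller than the points, open diamonds are values of 20 to 49 cells, and values of fewer cells are left out. The cluster led by Ccl8 runs from 770 CPM in D2 to 23069 in Sham, and the one led by Chil3 is the only cluster shown with its Sham value lowest.

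Within these classes the chains were carried very unevenly from cell to cell. Each cell was thinned to 1000 UMIs so that depth was the same, and cells below that depth (0 to 49 per class and library) were left out. Before thinning, 79.3%, 74.4% and 80.6% of monocyte/macrophage-like cells in Sham, D2 and D7 had a chain UMI. After it, no chain UMI was found in 34.7% of monocyte/macrophage-like cells in Sham, 58.1% in D2 and 38.7% in D7. At least 20 chain UMIs were found in 18.5%, 8.39% and 18.4% of them. The lower D2 sum thus went with more cells at 0 and fewer cells with many. In dendritic-like cells the median was 22 chain UMIs per cell in Sham, 33 in D2 and 22 in D7, with 0%, 2.08% and 5.92% of cells at 0. In B-like cells the medians were 6, 9 and 9, and 10.4%, 1.92% and 1.44% of cells were at 0. Ciita, a gene of low counts, was seen in 12.6% of thinned dendritic-like cells in Sham, 26.0% in D2 and 13.5% in D7, and before thinning in 68.5%, 84.9% and 57.1%. In thinned neutrophil-like cells it was seen in 0 of 143 in Sham, which allows a share of cells with a UMI of up to 2.10% and sets no limit on the cells expressing it, and in 0.224% in D2 and 0.256% in D7.

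**Figure D5:**
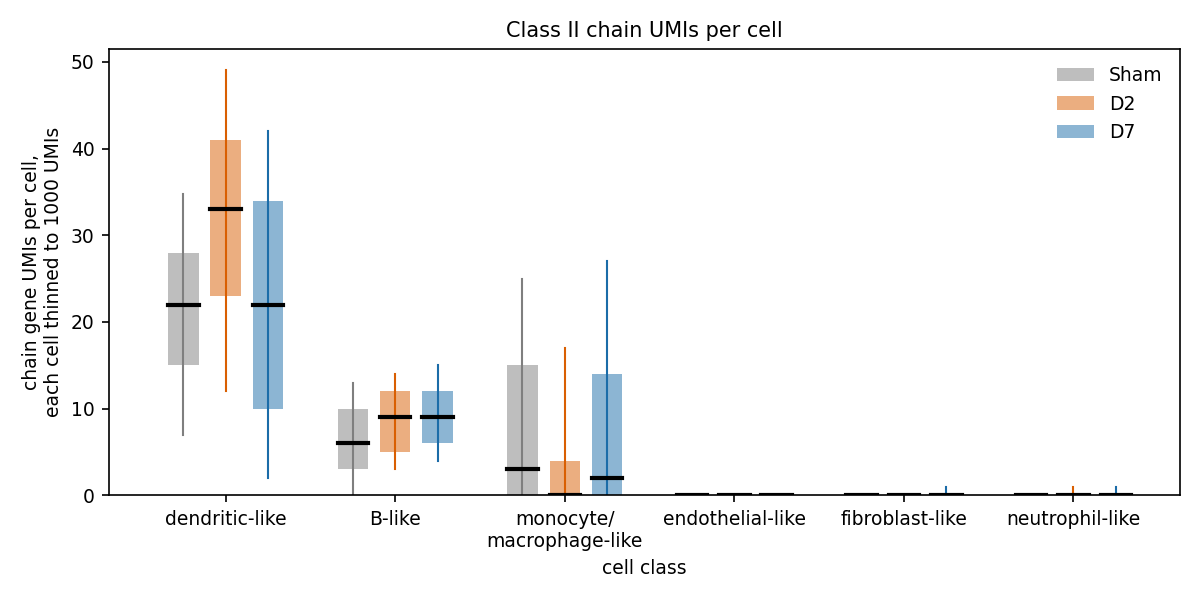
Chain gene UMIs per cell after thinning each cell to 1000 UMIs, by class and library; black bars are medians, boxes run from the 25th to the 75th and lines from the 10th to the 90th percentile of cells. Dendritic-like cells have medians of 22, 33 and 22 in Sham, D2 and D7, and the endothelial-, fibroblast- and neutrophil-like classes have medians of 0 throughout.

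Endothelial-like cells carried few class II UMIs, and those were held by few cells. H2-Aa had 14.8 CPM in D2 against 79.8 in Sham (0.185, 0.111 to 0.293) and 202 CPM in D7 (2.53, 2.11 to 3.06). Over Sham, 4 of the 4 genes compared (the chains and Cd74) were called lower in D2, where 10.5% of 4214 genes were, and 2 of the 4 (H2-Aa and H2-Eb1) higher in D7, where 5.41% of 4157 were. None was called higher in D2, against 10.4% of all genes, or lower in D7, against 6.57%. The D2 values rest on 88 cells and 62 chain UMIs. The D7 values rest on a handful of cells, since 20 of 381 cells held 91.8% of the 1421 chain UMIs and 1 cell held 505. Ciita had 0 UMIs in D2 and 3 each in D7 and Sham.

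Among thinned endothelial-like cells, 8.87% had a chain UMI in Sham, 6.98% in D2 and 7.71% in D7, at median depths of 3432.5, 12963.5 and 5390 UMIs before thinning. The shares in neutrophil-like cells, which should lack the genes, were 7.69%, 14.4% and 13.7%, at 3968, 3810 and 3361 UMIs. Before thinning the shares were 25.3%, 39.8% and 30.4% in endothelial-like and 24.3%, 42.0% and 38.0% in neutrophil-like cells, so the endothelial-like shares were close to or below the neutrophil-like ones both ways. The neutrophil-like level itself is not plain free RNA in D7. By collagen and other fibroblast genes, free RNA could supply 89.0, 243 and 63.5 CPM of the chains in neutrophil-like cells of Sham, D2 and D7, against 92.2, 171 and 383 CPM measured, and 79 of 1578 D7 cells held 72.5% of their chain UMIs. For endothelial-like cells, free RNA was estimated from genes of neutrophils, monocytes and B cells. From their level the estimate was 272, 413 and 310 CPM of the chains in Sham, D2 and D7, against 241, 43.6 and 542 CPM measured. It stood above the measured level in Sham and far above it in D2, so it was too high there. It therefore sets no firm level for D7. Among cells with no UMI of the leukocyte genes checked, the chain sum was 76.4 CPM in 178 D7 cells against 143 CPM in 341 Sham cells (0.533, 0.403 to 0.699), the reverse of the order over all cells. With the class given to each cell on its own markers, the D7 ratio was 0.541, against 2.25 here. The higher D7 level was thus not seen in cells without leukocyte UMIs.

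Fibroblast-like cells gave a like picture. H2-Aa had 105 CPM in D7 against 23.7 in Sham (4.42, 3.95 to 4.96), H2-Eb1 93.6 against 20.4 (4.59, 4.07 to 5.20) and Cd74 180 against 48.9 (3.68, 3.40 to 3.99). H2-Ab1 was 3.40 times the Sham level (3.03 to 3.84). All 4 genes that reached the count limits were called higher in D7, where 7.98% of 3845 genes were and 11.5% were called lower. In D2 over Sham no member reached the limits, where 15.2% of 4095 genes were called higher and 16.9% lower, and the chain sum was 0.969 times the Sham level (0.794 to 1.17), from 88 cells. Ciita had 13 UMIs in Sham, 2 in D2 and 60 in D7, at 0.930, 1.07 and 1.61 CPM. In D7, 145 of 2884 cells held 81.5% of the chain UMIs.

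Among thinned fibroblast-like cells, 5.73% had a chain UMI in Sham, 6.90% in D2 and 12.4% in D7, all below the neutrophil-like share of the same library. Before thinning, at unequal depths, the fibroblast-like shares were 24.8%, 55.7% and 45.8%. The free RNA estimate was 64.7, 205 and 218 CPM in Sham, D2 and D7, against 66.1, 64.1 and 273 CPM measured. Here too it was above the measured level in D2, so it sets no firm level for D7. Without cells holding a leukocyte UMI, the chain sum was 45.0 CPM in 996 D7 cells against 41.8 CPM in 1373 Sham cells (1.08, 0.940 to 1.23). No difference in the chain sum between D7 and Sham was detectable in those cells. H2-DMb1, under the count limits and so not called, had 9.28 CPM (7.52 to 11.3) there in D7 against 3.07 (2.07 to 4.38) in Sham. These values rest on 96 and 30 UMIs, and whether the groups differ was not tested. H2-DMa had 3.29 CPM in D7 against 3.78 in Sham, with overlapping intervals. Over all fibroblast-like cells H2-DMb1 had 15.5 CPM in D7 against 4.36 in Sham. With called doublets kept, the D7 ratio of all cells was 1.13, against 4.13 here. The class also changed its make-up, as 2681 of the 2884 D7 cells were in a cluster led by Mfap4, Cthrc1 and Col1a1 that held 13 Sham cells.

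Other genes of the pathway were read from lists made by their known roles. Of 11 regulators of class II transcription, among them the RFX and NF-Y subunits that bind the X and Y boxes shown above, 6 reached the count limits in dendritic-like cells and 0 were called in D2 over Sham. Of all genes, 9.02% were called higher and 4.85% lower there, so 0 of 6 does not set the list apart. Rfx5 had 8.98 CPM in D2 against 4.80 in Sham, and Rfxap 40.1 against 39.0, both under the limits. In monocyte/macrophage-like cells 1 of 6 was called lower in D2, Nlrc5, the related activator of class I genes, with 29.8 CPM in D2 against 78.3 in Sham (0.381, 0.344 to 0.422). None was called higher, and of all genes 7.69% were called lower and 5.51% higher.

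The endosomal genes that cut and reduce proteins for loading were often called higher after injury, also where the chains were lower. In monocyte/macrophage-like cells 6 of 10 were called higher in D2 and none lower, with a median log2 ratio of 1.67 over the 10, beside 0.02 over all genes. Ctsd, an aspartic protease, had 1693 CPM in D2 against 254 in Sham, and Ctsl, which cuts the invariant chain in thymic epithelium, 900 against 205. Ifi30, the reductase of the endosome, had 716 CPM in D2 against 199 in Sham. Lgmn, a protease that cuts after asparagine, had 2138 CPM in D2 against 613 in Sham. These D2 counts stand beside 5.51% of all genes called higher and 7.69% lower. In D7 over Sham, 4 of 10 were called higher and none lower, beside 7.19% and 9.58% of all genes. The clusters of this class differed between libraries, as 709 of its 976 Sham cells were in the one led by Cd209f. That cluster held 17 of the 4237 D2 and 115 of the 2758 D7 cells. The part of that make-up in these monocyte/macrophage-like ratios was not tested. In dendritic-like cells 8 of 10 were called higher in D2, beside 9.02% of all genes, and 6 of 10 in D7, beside 7.1%, with 1 called lower in each, beside 4.85% and 3.31%. Ctss, which cuts the invariant chain in dendritic cells and B cells, had 1828 CPM in D2 against 437 in Sham (4.18, 3.88 to 4.51). Cst3, an inhibitor of these proteases, was the 1 called lower in D2, with 3429 CPM in D2 against 12942 in Sham (0.265, 0.261 to 0.269). Macrophage genes moved with these, as C1qb had 147 CPM in D2 dendritic-like cells against 12.6 in Sham and Apoe 330 against 56.4. Without the sub-clusters led by C1qb and Col1a2, C1qb had 22.2 CPM in D2 against 17.0 in Sham, 6 of 10 endosomal genes were called higher and 1 lower in D2, Ctss was at 4.37 (3.97 to 4.82) and Cst3 at 0.226. In D7, 6 of 9 were then called higher and 1 lower. Of all genes compared in these cells, 10.4% were called higher and 6.42% lower in D2, and 8.50% and 4.54% in D7. The 91 Sham cells left were mostly type 1-like and the 725 D2 cells were not. The part of this make-up in the endosomal ratios was not tested.

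Genes of the interferon gamma signal, the usual inducer of Ciita outside the immune cells, were more often called lower than higher in both stromal classes. In fibroblast-like cells 8 of 11 compared were called lower in D2, beside 16.9% of all genes, and 6 of 11 in D7, beside 11.5%, and none higher. Iigp1, an interferon-induced GTPase, had 28.9 CPM in D7 against 232 in Sham, and Cxcl9, a chemokine induced by interferon gamma, 8.59 against 66.8. In endothelial-like cells 5 of 10 were called lower and 1 higher in D2, where the chains were lower too, beside 10.5% and 10.4% of all genes. In D7, where H2-Aa and H2-Eb1 were higher, 5 of 11 were called lower and 2 higher, beside 6.57% and 5.41% of all genes. In monocyte/macrophage-like cells 2 of 11 were called lower in D2, beside 7.69% of all genes, and 3 of 11 in D7, beside 9.58%. In dendritic-like cells 4 of 10 were called lower in D2, beside 4.85% of all genes, and 2 of 10 in D7, beside 3.31%, with Cxcl9 at 0.998 CPM in D2 against 285 in Sham. Cxcl9 was among the leading genes of the type 1-like sub-cluster that held most Sham cells of that kind, and the part of this make-up was not tested.

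Of the class I genes, which present peptides made inside the cell, 8 of 13 were called lower and 1 higher in fibroblast-like cells of D2 over Sham, beside 16.9% and 15.2% of all genes, and 4 of 13 lower and none higher in D7, beside 11.5% and 7.98%. H2-K1 had 231 CPM in D7 against 497 in Sham, while H2-Aa was higher in the same cells. In dendritic-like cells 0 of 15 class I genes were called in either comparison.  Of all genes in that class, 9.02% were called higher and 4.85% lower in D2, and 7.1% and 3.31% in D7. Among costimulatory and turnover genes 0 of 7 were called in dendritic-like cells of D2 and 0 of 6 in D7, beside the same shares. Counts of 0 in lists this short are near those shares and set neither list apart. Cd86, a ligand of CD28, had 723 CPM in D2 and 797 in D7, against 453 in Sham. Of the neighbours of the chain genes, H2-Eb2, a beta chain gene beside H2-Eb1 and similar to it, was called higher in B-like cells, with 203 CPM in D2 and 155 in D7, against 61.1 in Sham.

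Genes with the most similar pattern were ranked by Pearson correlation of log2(CPM + 1) over 27 class-by-library sums, which share 3 libraries and their free RNA. Nearest to the mean of the chains and Cd74 were Cd83 (0.962), Slamf7 (0.951), Kmo (0.944), Phf11b (0.917) and Jarid2 (0.915). Nearest to Ciita were Kmo (0.963), Ildr1 (0.946), Cd83 (0.938), Kynu (0.915) and Ifi209 (0.907). Kmo was one of the markers used to name dendritic clusters. Among the members, Ciita correlated with the chain pattern at 0.960 and the DM genes H2-DMa and H2-DMb1 at 0.929 and 0.915. H2-DMb2, H2-Oa and H2-Ob, the members high in B-like cells, were at 0.814, 0.761 and 0.760.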

How the data were processed

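Cells of mouse femoral arteries were measured in 3 libraries (Sham, D2, D7). The authors deposited raw UMI counts per gene and barcode, all whole numbers here. The version is Cell Ranger 7.1.0 per the file headers and Cell Ranger 7.2.0 per the submitters' processing notes, which also name mm10 and Seurat 5.0.1. Libraries held 39756684 to 100571340 UMIs. Barcodes under 300 genes or 500 UMIs or above 15% mitochondrial UMIs were dropped. Scrublet scores above 0.25 (the automatic threshold called 0 Sham cells) marked 122 Sham, 485 D2 and 359 D7 doublets, which were removed.

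After log-transformation of counts per 10000, 2000 variable genes without the 10 members gave 30 components, 15 neighbours and Leiden clusters at resolution 1 (scanpy 1.11.5, leidenalg 0.10.2, scikit-learn 1.9.0). A cluster took the best class with at least 3 markers in 10% of its cells and a mean z score of 0.5, unless its 10 leading genes held more genes of another class or it was shallow, with no class marker among them. Raw counts were then summed per class and library. Classes were compared with at least 50 cells in both. CPM has exact Poisson, shares exact Clopper-Pearson and ratios exact conditional 95% intervals (SciPy 1.17.1). With 1 library per group no test was possible. Free RNA was estimated from genes of unrelated cell types. Calling was tested on simulated data. All 10 members are named in every class, as are the 5 genes nearest in pattern. The members and lists were chosen with earlier results of these data known.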

Additional observations from a re-analysis of the deposited data

Results flagged for a closer look

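The chain sum moved in opposite directions in different classes under the same comparison, and these differences between classes were not tested, since each group is 1 library. In D2 over Sham it was above 1 in dendritic-like cells (1.38) and B-like cells (1.33), and below 1 in monocyte/macrophage-like (0.443) and endothelial-like cells (0.181). In D7 over Sham it was above 1 in dendritic-like (1.03), B-like (1.43), endothelial-like (2.25) and fibroblast-like cells (4.13), and below 1 in monocyte/macrophage-like cells (0.829). Against the free RNA estimate, the endothelial-like level was 43.6 CPM against 413 in D2 and 542 against 310 in D7, and the fibroblast-like one 64.1 against 205 in D2 and 273 against 218 in D7. In Sham the levels were 241 against 272 and 66.1 against 64.7 CPM. The estimate was above the measured level in D2 in both stromal classes, so it was too high there and is no firm guide for D7. The D7 value of dendritic-like cells was below 1 under several other definitions of the class.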

How the results depend on the processing

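The chain ratios were recomputed under other class definitions and scales. Of 72 recomputed ratios, 27 stayed within the counting interval of the reported one, 38 left it on the same side of 1 or from an interval that held 1, and 7 turned to the other side. With a floor of 500 genes and 1000 UMIs, dendritic-like cells gave 1.20 for D2 and 0.901 for D7 over Sham, monocyte/macrophage-like cells 0.429 and 0.775, and fibroblast-like cells 0.648 and 2.51. With called doublets kept, dendritic-like cells gave 1.29 for D2, B-like cells 0.930 and 1.28, monocyte/macrophage-like cells 0.424 and 0.770, endothelial-like cells 0.0708 and 1.63, and fibroblast-like cells 0.192 and 1.13. As a mean over cells, dendritic-like cells gave 1.45 for D2, monocyte/macrophage-like cells 0.526 and 1.005 and endothelial-like cells 1.29 for D7. At resolution 2, dendritic-like cells gave 1.34 and 1.01, monocyte/macrophage-like cells 0.450 and 0.893, and fibroblast-like cells 0.732 and 3.08. With the 10 genes used in clustering, dendritic-like cells gave 1.20 and 0.900, monocyte/macrophage-like cells 0.433 and 0.789, and fibroblast-like cells 3.80 for D7. With the class given to each cell on its own markers, dendritic-like cells gave 1.43 and 0.949, B-like cells 1.38 for D7, monocyte/macrophage-like cells 0.370 and 0.671, endothelial-like cells 0.541 for D7, and fibroblast-like cells 1.89 and 2.19. With free RNA subtracted, monocyte/macrophage-like cells gave 0.426 for D2, and endothelial-like and fibroblast-like cells gave no value, as less than 0.5 of their level remained in at least 1 library. Chosen after seeing the data, counting the cluster with Cd209a and Retnla as dendritic-like gave 1.33 and 0.996, leaving out the sub-clusters led by C1qb and Col1a2 gave 1.41 and 1.05 and 2 of the 10 genes called higher in D7 over Sham in place of 0, and counting a shallow cluster with fibroblast markers (1991 Sham, 24 D2 and 211 D7 cells) as fibroblast-like gave 0.603 and 2.28. The cause of each turn was not tested.

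The lower chain sum of monocyte/macrophage-like cells in D2 and the higher one of dendritic-like cells in D2 kept their side of 1 in every alternative run, whereas the D7 ratios of dendritic-like, monocyte/macrophage-like and endothelial-like cells and the D2 ratio of B-like cells did not. Of 150 shares of cells with a UMI, 94 left their interval at a thinning to 2000 UMIs and 133 without thinning. Of 66 stromal levels, 47 left theirs in cells without leukocyte UMIs. No paired analysis was possible because each group has 1 library, and for the same reason none could be left out. In D2 the 88 endothelial-like and 88 fibroblast-like cells limit what depth can show.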
